A study of Homo sapiens with 2 samples.

Results

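The regions described here are the peaks of C/EBPβ that the authors' deposited list pairs with noncoding RNA transcripts and with no protein-coding one. A peak belonged to the set when every transcript in its rows had a RefSeq accession starting with NR_, the prefix of noncoding transcripts. Peaks with a symbol of a microRNA, small nucleolar RNA or small Cajal body RNA gene, or with a symbol ending in -AS and a digit, were left out. Of 7029 listed peaks, 537 had only NR_ transcripts, and 356 of these (5.06% of all listed peaks) remained after 181 were left out by symbol. The 356 peaks formed 493 pairs with 369 transcripts, which came from 276 genes.

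The study used HL-60, a human leukaemia line of myeloblast type, made to overexpress C/EBPβ. Of its 2 libraries, 1 is the chromatin immunoprecipitate of C/EBPβ and the other is input, for which no antibody was used. The cells of both overexpress the factor, by means not stated in the labels, and cells without overexpression were not analysed here. With 1 library of each kind and no repeat, samples could not be tested against each other. The peak list belongs to the C/EBPβ library and holds no height or enrichment, so read depth and peak strength are unknown. Shares and medians carry 95% intervals that cover counting over peaks or genes only, and neither peaks nor genes are biological replicates. The list holds no expression, so the myeloblast label was not checked against markers, and a peak does not show that the RNA is made.

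The transcription factor C/EBPβ, of the leucine zipper class, drives myeloid differentiation and inflammatory genes. Dimers of it bind DNA at sites whose best form is the palindrome TTGCGCAA. Long noncoding RNAs are transcribed by RNA polymerase II from promoters of their own and are often restricted to few cell types. Some of them build nuclear bodies, some act on genes nearby, and for most no function is known. Transcribed pseudogenes are copies of other genes, so reads can map both to them and to the parent gene.

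Promoter sequences are shown for 5 genes whose start lay under a peak of the set, because the factor's motif can be read in them directly. Of these, 4 hold the relaxed motif and NORAD does not. The 5 are not typical, since 8 of 36 promoters under a peak of the set held it. LINC00471, SPATA41, LINC02159 and LINC01556, with peak middles at most 33 bases from the start, hold no copy and are not shown. The 5 sequences come from RefSeq promoters of build GRCh38, from 250 bases before to 50 after the start, written 5′ to 3′. Capitals mark TTGCNNAA or its reverse complement TTNNGCAA. Starts can differ between this build and the hg19 build of the peaks, so offsets below assume the same start base.
EGOT, chr3:4751541-4751840, strand -: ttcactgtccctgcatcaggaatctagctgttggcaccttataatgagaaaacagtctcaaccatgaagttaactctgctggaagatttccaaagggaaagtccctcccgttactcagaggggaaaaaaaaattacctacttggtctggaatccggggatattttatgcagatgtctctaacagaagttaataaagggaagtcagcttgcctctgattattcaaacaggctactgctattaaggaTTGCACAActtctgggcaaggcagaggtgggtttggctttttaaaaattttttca
LINC01623, chr6:28863628-28863927, strand -: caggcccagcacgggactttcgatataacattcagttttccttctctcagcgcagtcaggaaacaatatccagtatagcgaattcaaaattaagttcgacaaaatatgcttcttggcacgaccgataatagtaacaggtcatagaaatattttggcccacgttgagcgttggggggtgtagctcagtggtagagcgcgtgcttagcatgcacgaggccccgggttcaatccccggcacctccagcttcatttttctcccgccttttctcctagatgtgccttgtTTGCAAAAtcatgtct
LINC00705, chr10:4655906-4656205, strand +: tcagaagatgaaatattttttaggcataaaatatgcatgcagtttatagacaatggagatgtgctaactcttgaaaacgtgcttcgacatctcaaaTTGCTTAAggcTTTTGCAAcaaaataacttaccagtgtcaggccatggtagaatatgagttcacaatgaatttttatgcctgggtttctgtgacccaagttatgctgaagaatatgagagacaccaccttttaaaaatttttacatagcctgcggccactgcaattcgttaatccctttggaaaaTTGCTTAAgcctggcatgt
LOC101927018, chr17:28926025-28926324, strand +: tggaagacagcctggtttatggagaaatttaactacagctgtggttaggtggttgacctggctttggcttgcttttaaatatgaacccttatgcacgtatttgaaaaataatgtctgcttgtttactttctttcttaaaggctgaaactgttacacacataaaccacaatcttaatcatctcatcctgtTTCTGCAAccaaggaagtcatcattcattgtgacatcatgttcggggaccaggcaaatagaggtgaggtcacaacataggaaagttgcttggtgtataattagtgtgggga
NORAD, chr20:36050911-36051210, strand -: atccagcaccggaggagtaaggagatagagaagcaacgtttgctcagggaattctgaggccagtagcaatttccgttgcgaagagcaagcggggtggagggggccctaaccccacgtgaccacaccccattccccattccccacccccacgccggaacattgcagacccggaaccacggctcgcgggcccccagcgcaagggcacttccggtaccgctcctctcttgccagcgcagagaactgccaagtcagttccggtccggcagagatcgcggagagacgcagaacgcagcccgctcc

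EGOT is a noncoding gene named for eosinophil granule ontogeny, found in blood progenitors set to become eosinophils. Its peak ran from 95 bases before to 118 after the start along the gene, and TTGCACAA spans the start itself, beginning at -5. In LINC01623 the peak ran from -118 to 158, with TTGCAAAA at 34. LINC00705 had TTGCTTAA at 31, inside a peak from -62 to 115, and further copies of the motif at -154 and -143, outside it. In LOC101927018 the reverse form TTCTGCAA began at -61, within a peak from -182 to 103. NORAD, whose RNA is induced by DNA damage and binds Pumilio proteins, had a peak from -147 to 117 and neither TTGCNNAA nor TGATGCAA, the joint site of C/EBP and ATF factors.

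Over the set, 36 long noncoding RNA genes had a single promoter in the RefSeq table and a peak of the set over that window. TTGCNNAA, read on both strands, was found in 8 of them (22.2%, 95% interval 10.1 to 39.2). It was found in 13.9% of the 1444 protein-coding promoters under a listed peak, in 13.7% of all 10328 long noncoding RNA promoters and in 8.29% of all 11786 protein-coding promoters. All promoters here means those of genes with a single promoter in the table. None of the 36 is on chromosome 8, where the set has 19 peaks. The interval of the 36 promoters includes the first and second of these shares and lies above that of all coding promoters. No difference from coding promoters under a peak was therefore detectable. In 7 of the 8 promoters, the motif lay inside the peak. The 36 were chosen for a peak over the window, so a copy can lie inside by placement alone. The share of window bases under a peak was not measured. The full palindrome TTGCGCAA, which TTGCNNAA includes, was in 0 of the 36, and 0.90% of the coding promoters under a peak held it. A count of 0 of 36 allows a share of up to 8.33% (3 counts of 36), and its exact 95% interval reaches 9.74%. TGATGCAA, or TTGCATCA on the other strand, was in 2 of the 36 (5.56%, 95% interval 0.68 to 18.7), against 1.25% of the coding promoters under a peak. LOC102724467 held 2 copies of it, at -170 and -46, both inside a peak from -415 to 106. In ANXA2R-OT1 it began at -1 from the start of the promoter read. Peaks of that gene are paired with several starts, among them 43018913 and 43019745 in hg19. Which of these the promoter belongs to was not determined, so the place of this copy relative to a peak is not given. Median GC content was 54.0% in the 36 promoters, 64.0% in the coding promoters under a peak and 49.7% in all long noncoding RNA promoters.

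Gene types were taken from a RefSeq gene table by accession or symbol, which matched all but 3 of the 369 transcripts. Of the 276 genes, 182 were long noncoding RNA genes, 65 pseudogenes, 6 small structured RNA genes, 20 protein-coding genes and 3 without a match. Counted by the gene of their nearest start, long noncoding RNA genes held 244 of the 356 peaks (68.5%) and pseudogenes 73 (20.5%). LINC names made up 104 of the genes, and 78 of the deposited symbols have since been renamed. The label of the set held for most but not all of its peaks: 25 (7.02%) had as nearest start that of a gene now classed as protein-coding, and 20 were paired with a gene whose current name marks it as antisense.

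As chosen by the rule, peaks of the set lay farther from a start than peaks with a coding transcript. The median distance from the peak middle to the nearest paired start was 799 bases (95% interval 649 to 932), against 420 bases (391 to 439) for the 6492 peaks with at least 1 coding transcript. Within 1000 bases of a start lay 209 of the 356 (58.7%, 95% interval 53.4 to 63.9), against 71.8% (70.7 to 72.9) of the peaks with a coding transcript and 70.4% of all listed peaks. A single start was paired with 327 of the 356 peaks of the set and with 4249 of the 6492 peaks with a coding transcript. Among these the medians were 874 bases (701 to 973) in the set and 530 bases (495 to 562) among peaks with a coding transcript. The rule leaves out a noncoding start's peak when a coding start is paired with it too. With each peak judged by its nearest start alone, the noncoding median was 553 bases (459 to 668), with 65.9% within 1000 bases. The size of the gap therefore depends on the rule. An even spread over the 3000 bases that the list allows would put 33.3% within 1000 bases, so the set was still gathered towards starts.

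**Figure D1:**
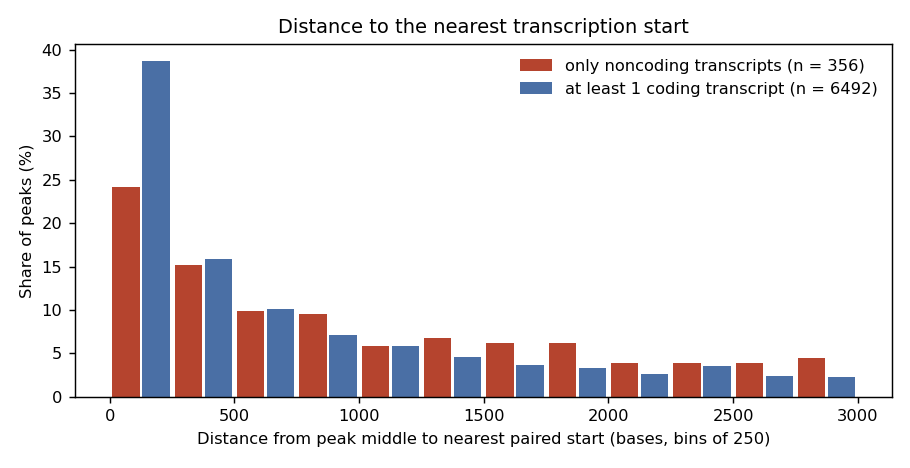
Share of peaks (y axis, %) by distance from the peak middle to the nearest paired start (x axis, bases, in bins of 250), for the 356 peaks with only noncoding transcripts and the 6492 with at least 1 coding transcript. The first bin holds 24.2% of the noncoding-only peaks and 38.7% of the others.

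Where the RefSeq table gives the gene's strand, peaks could be placed before or after the start. Of 197 peaks of the set, 96 (48.7%, 95% interval 41.6 to 55.9) lay upstream, against 44.7% (43.3 to 46.0) of 5275 peaks with a coding transcript. No strand was given for peaks of the set at pseudogenes or small structured RNA genes, or on chromosome 8. These are therefore not among the 197. The peaks of the set that could be placed lay on both sides of the start in about equal number. No difference between the groups was detectable. Widths were alike as well. The median width, end minus start, was 224 bases (95% interval 214 to 240) in the set and 229 bases (226 to 233) among peaks with a coding transcript. Peaks wider than 500 bases were 26 of 356 (7.30%, 95% interval 4.83 to 10.5) and 6.59% (6.0 to 7.22).

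**Figure D2:**
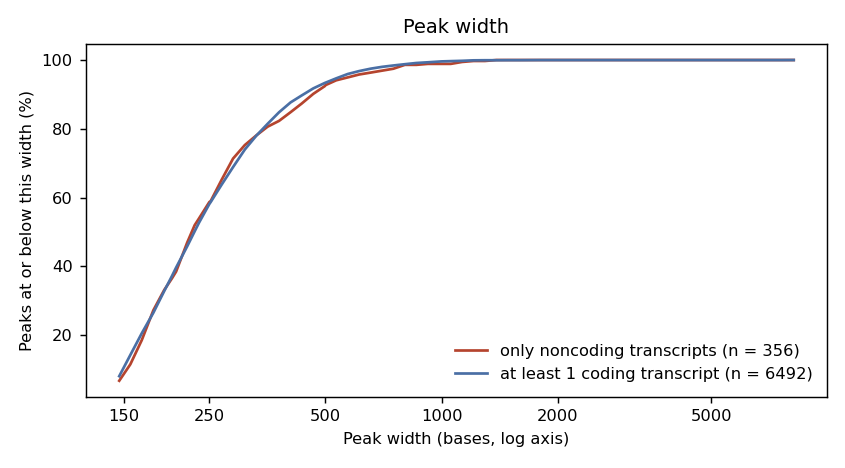
Share of peaks at or below a given width (y axis, %; x axis, bases on a log scale) for the 356 noncoding-only peaks and the 6492 peaks with a coding transcript. The curves nearly coincide: 52.0% of the noncoding-only peaks and 50.2% of the others are at most 229 bases wide.

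The peaks nearest to a start are at genes of several types. The peak on chromosome 5 at 169758218 to 169758575 has its middle exactly on the start of LINC01366. It is followed by LINC02608 at -2 bases, where a negative sign points to lower hg19 positions, and by the pseudogene MRPS31P5 at 4 bases. LINC00471 came next at -6 bases. The peak at -7 bases from a noncoding transcript of PTH2R, a receptor gene of the parathyroid hormone family, was 146 bases wide, the smallest width in the list, which 24 peaks of the set and 524 peaks with a coding transcript share. SPATA41 at -11, EGOT at -12, LINC-PINT at 12 and the pseudogene PRORSD1P at 13 bases were also among the 10 nearest. A total of 46 peaks of the set (12.9%, 95% interval 9.62 to 16.9) lay within 100 bases of a start, against 20.2% (19.2 to 21.2) of the peaks with a coding transcript.

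The widest peaks include those at nuclear and leukaemia-linked RNAs. DLEU2, a gene of the chromosome 13 region often deleted in chronic lymphocytic leukaemia and host of a microRNA pair, carried the widest, 1309 bases at 50699313 to 50700622. NEAT1, whose RNA is the scaffold of paraspeckles, had one of 1132 bases at 65189538 to 65190670 on chromosome 11. LINC01132 had one of 1117 bases, and ROCK1P1, a partial copy of ROCK1, had one of 1068 and one of 788 bases. The others among the 10 widest were at LINC00563 (883 bases), a noncoding transcript of NPLOC4 (800), LINC01138 (774), CCDC200 (769) and RNU4ATAC (715). Of these 10 peaks, those at LINC00563, NPLOC4 and the narrower one at ROCK1P1 had their middle more than 1000 bases from a start. The 4 at DLEU2, NEAT1, LINC01132 and the wider one at ROCK1P1 were all within 290 bases of it.

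Most noncoding genes of the set had a single peak. Of 256 such genes, 196 had 1 peak, 43 had 2, 10 had 3, 4 had 4, 2 had 5 and 1 had 7. The gene with 7 was ANXA2R-OT1 on chromosome 5, with 5 peaks between 43018031 and 43020721 and another pair near a further start, at 43064760 to 43065227 and 43066739 to 43067209. That pair was shared with LOC100132356 and LOC100506639. FLJ32255, nearby on the same chromosome, had 3 more. NEAT1 had 5 peaks between 65188682 and 65192346, with middles at -1395, -164, 1001, 1328 and 1922 bases. ROCK1P1 had 5 in the set and 3 more that are paired with a microRNA gene as well.

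MALAT1, a neighbour of NEAT1 on chromosome 11 whose RNA gathers in nuclear speckles, had 4 peaks at -129, 1048, 1809 and 2716 bases. At both genes 1 peak crossed the start and 3 others lay at higher positions; NEAT1 had 1 more at lower ones. The 4 peaks of DLEU2 lay at -1506, -1084, -647 and 290 bases, and its neighbour DLEU1 had 3, at -781, -448 and 708 bases. LINC00926 and LINC02265 also had 4 peaks each. LINC-PINT, a p53-induced RNA, had 3 peaks in the set at more than 1 start and 4 others paired with coding transcripts.

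**Figure D3:**
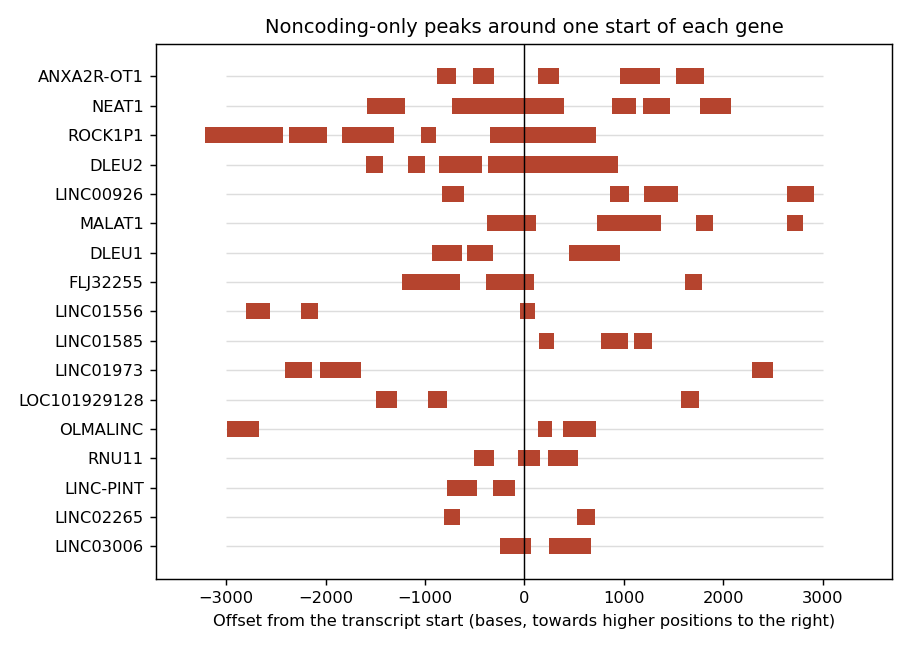
Noncoding-only peaks of the 17 genes with at least 3 of them, drawn to scale as bars from peak start to peak end around the transcript start with most of these peaks (x axis, bases; the vertical line is the start; y axis, gene). DLEU2, NEAT1, ROCK1P1, MALAT1, FLJ32255, LINC01556, RNU11 and LINC03006 have a bar across the start; not drawn are peaks at other starts (2 each of ANXA2R-OT1 and LINC02265, 1 each of LINC-PINT and LINC03006) and peaks also paired with a left-out or coding transcript.

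Runs of neighbouring peaks were common. Joining peaks of the set less than 10 kb apart gave 271 runs, of which 59 held at least 2 peaks and together 144 of the 356. Another listed peak of any kind lay within 10 kb of 153 peaks of the set (43.0%, 95% interval 37.8 to 48.3), against 52.1% (50.9 to 53.3) of the peaks with a coding transcript. A listed peak from outside the set lay that close for 26 of the 356. No like count was made for other peaks, and the rule of the set itself leaves out peaks near coding starts. By type, the share within 10 kb of another listed peak was 48.0% for peaks at long noncoding RNA genes and 27.4% at pseudogenes.

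The set was spread unevenly over chromosomes. On chromosome 13 it made up 22 of 205 listed peaks (10.7%, 95% interval 6.85 to 15.8), on chromosome 5 it was 24 of 236 (10.2%, 6.63 to 14.8), and on chromosome 19 only 8 of 534 (1.5%, 0.649 to 2.93), against 5.06% over the whole list. DLEU1 and DLEU2 account for 7 of the 22 on chromosome 13. On chromosome 5, ANXA2R-OT1 and FLJ32255 account for 10 of the 24. The number of noncoding starts per chromosome was not adjusted for.

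To read the set against all genes of its kind, genes were counted in the RefSeq table of chromosomes 1 to 22 and X. Of 6660 long noncoding RNA genes with an NR_ transcript, 2.72% had a peak of the set and 9.02% any listed peak. Of 1178 transcribed pseudogenes, 5.52% had a peak of the set and 8.91% any listed peak. Protein-coding genes had a listed peak in 26.5% of 19392 cases. The table is newer than the transcripts the authors paired, and genes added since count as without a peak, which lowers the noncoding shares.

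Noncoding genes known from blood cells, leukaemia or inflammation were taken as a list. This list and those of widely expressed RNAs and small nucleolar RNA hosts were drawn up with earlier results of these data known and share members such as NEAT1 and MALAT1, so their shares are descriptions only. Of 35 genes of this list found in the table, 12 (34.3%) had a peak of the set and 17 (48.6%, 95% interval 31.4 to 66.0) any listed peak. LUCAT1, an RNA that restrains the interferon response in myeloid cells, had its peak 142 bases from the start, at 90610253 to 90610470 on chromosome 5. CCDC26, a chromosome 8 gene linked to acute myeloid leukaemia, had 2 peaks at -1366 and 1918 bases. WFDC21P, whose RNA is known as lnc-DC from dendritic cells, had 1 at -1498 bases. LINC00877, LINC00861 and LINC01215 had 1 peak each, at 457, 849 and 331 bases. The other 6 are NEAT1, MALAT1, LINC-PINT, DLEU1, DLEU2 and EGOT, described above.

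A further 5 genes of the list had peaks outside the set. The peaks of GAS5, CRNDE and TUG1 were paired with coding transcripts too, and those of MIR99AHG and MIR181A1HG carry symbols that were left out. No peak was listed at 18 genes, among them the myeloid RNA gene HOTAIRM1 of the HOXA cluster, PVT1 beside MYC, and the microRNA host genes MIR155HG, MIR223HG and MIR22HG.

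Widely expressed noncoding RNAs had a peak of the set at 6 of 22 genes (27.3%), and any listed peak at 10 (45.5%, 95% interval 24.4 to 67.8), against 9.5% of all noncoding genes with an NR_ transcript. Besides NEAT1, MALAT1 and NORAD, these were JPX, TERC and VTRNA1-2. JPX, a gene of the X-inactivation centre, had a peak of 660 bases at -227 bases. TERC, the RNA template of telomerase, had 1 at -1925 bases, and the vault RNA gene VTRNA1-2 had 1 at 1269 bases. No peak was listed at RN7SK, RPPH1, KCNQ1OT1 or FTX. Host genes of small nucleolar RNAs had any listed peak at 16 of 33 (48.5%, 95% interval 30.8 to 66.5), but only SNHG33, with a peak 50 bases from its start, had one in the set. The peaks of the other 15 were paired with coding or left-out small RNA transcripts as well.

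**Figure D4:**
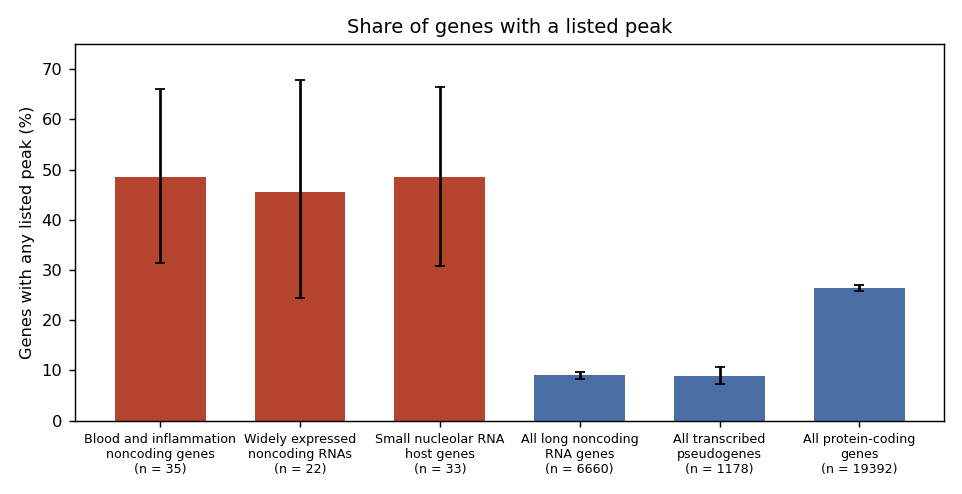
Share of genes with any listed peak (y axis, %) for the 3 lists of noncoding genes and for all long noncoding RNA genes, transcribed pseudogenes and protein-coding genes of the RefSeq table; bars start at 0 and error bars are exact 95% binomial intervals. The lists reach 48.6%, 45.5% and 48.5%, the background bars 9.02%, 8.91% and 26.5%.

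Among small structured RNAs, 2 genes of the minor spliceosome, which removes a rare class of introns, had peaks close to their starts. RNU11, encoding U11, had 3 peaks at -404, 46 and 390 bases. RNU4ATAC, encoding the minor-class U4 RNA, had its wide peak at 122 bases, from 122288220 to 122288935 on chromosome 2. RNVU1-8, a variant U1 gene, had 2, at 35 and -488 bases. The U6 gene RNU6-2 was listed on 2 chromosomes, 14 and 15, neither of which is that of the table, so its place is uncertain. U1 and U6 genes have many near-identical copies, among which reads can be split.

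Some of the 65 pseudogenes with peaks are relatives of genes of blood cells. Those named here were picked after their values were seen, and the share of such relatives was not counted. RNASE2CP, a pseudogene of the eosinophil ribonuclease family, had a peak of 638 bases at -73 bases, 21387107 to 21387745 on chromosome 14. PPBPP2, a pseudogene of the platelet chemokine gene PPBP, had 1 at 1456 bases. Near-identical DDX11L genes had 4 peaks, the first of them at 10067 to 10382 on chromosome 1. Median distance was 964 bases (95% interval 570 to 1493) for the 73 peaks at pseudogenes and 840.5 bases (677 to 957) for the 244 at long noncoding RNA genes.

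The 20 protein-coding genes entered through noncoding transcripts of theirs, or because RefSeq has since reclassified them. IL1R2, the decoy receptor for interleukin-1 that neutrophils and monocytes carry, had a peak 649 bases from a noncoding transcript's start, at 102615952 to 102616192 on chromosome 2. CYRIB, a regulator of the actin cytoskeleton, had 2 at 110 and -1142 bases. SMIM30, CCDC200 and LASP1NB were deposited under LINC symbols. Without the peaks of protein-coding genes, 331 peaks remained, with a median distance of 820 bases.

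Coding neighbours of the noncoding genes often had peaks of their own. Gene order in the table gave a coding neighbour on both sides for 248 noncoding genes of the set. At least 1 of the neighbours had a listed peak for 141 of them (56.9%, 95% interval 50.4 to 63.1), against 41.4% (40.3 to 42.5) of 7848 long noncoding RNA genes and transcribed pseudogenes in all, and 38.0% (36.8 to 39.1) of the 7148 without a listed peak. The 248 include a few genes of other classes. The 242 that are long noncoding RNA genes or transcribed pseudogenes gave 139 (57.4%, 50.9 to 63.7), a count added after seeing the data. The background holds the genes of the set too. Distances to neighbours and gene density were not adjusted for.

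A neighbour from a list of myeloid regulators and effectors was found for 10 of the 248 genes (4.03%, 95% interval 1.95 to 7.29), against 1.66% (1.39 to 1.96) of all. CCDC26 lies next to MYC in gene order, and MYC, the proliferation factor, had 6 peaks of its own. RUNX1-IT1, a noncoding gene within the RUNX1 locus, had 1 peak at 36412654 to 36412860 on chromosome 21, 1034 bases from its start, and RUNX1, a key factor of blood formation, had 9. LINC01220, next to the AP-1 gene FOS, had 2 peaks at 2588 and 2885 bases, near the far end of the 3000 bases allowed. LINC00705 lies next to KLF6, and LINC00861 and LOC101927657 next to TRIB1, a pseudokinase gene whose product drives the breakdown of C/EBPα. Next to means order among coding genes here, whatever the distance. The nearest other listed peak was 871975 bases from that of LINC00705. The peaks of LINC00861 and LOC101927657 are each the nearest listed peak to the other, 370699 bases apart. Their distances to the peak of TRIB1 are not given. LINC02362 and LINC02363 lie next to the interferon regulator IRF2. FOS, KLF6, TRIB1 and IRF2 had 1 listed peak each. ERG, beside LINC00114, and ID2, beside LINC01814, had none listed.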

How the data were processed

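Chromatin immunoprecipitation sequencing was done in 1 C/EBPβ and 1 input library. Per the submitters' processing notes, BWA 0.7.10, SAMtools and MACS2 2.1.1 were used with build hg19, with no roles given for them. The authors' deposited list gives peak borders, RefSeq transcript, symbol, signed distance in bases and a score. That deposited score depends on distance alone and carries no peak strength. No source used here gives the peak threshold, the use of the input or whether starts count from 0 or 1. Read depth is unknown.

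From the list, the set was chosen by accession prefix and symbol. The nearest paired start set each peak's distance. Types, names, neighbours, strands and promoters came from RefSeq tables of GRCh38, with none of their positions set against hg19 positions. Promoters were read for the 22114 genes with 1 entry. Shares have exact (Clopper-Pearson) and medians order-statistic binomial 95% intervals. No test was run, since there is no replicate. Scripts in Python 3.11.15 with SciPy 1.17.1 were checked on simulated data.

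The members and lists were chosen with earlier results of these data known. The named genes are those of the 10 nearest and 10 widest peaks, the 10 with most peaks, list members and genes with a myeloid-list neighbour. Other named genes were chosen after their values were seen. One of the nearest peaks is not reported here. Alternatives covered the symbols left out, gene type, nearest start only, a 1000-base window and wider peaks.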

Additional observations from a re-analysis of the deposited data

How the results depend on the processing

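Of 42 values recomputed, 6 results under 7 alternatives, 31 stayed within their interval or within 1.5 times of the count, and 11 moved. With microRNA, small nucleolar, Cajal body and antisense genes kept in, there were 537 peaks at 453 noncoding genes, with a median distance of 939 bases and 53.1% within 1000 bases. With each peak judged by its nearest start alone, the median distance was 553 bases and 65.9% lay within 1000 bases. With only pairs within 1000 bases used, the median distance was 347 bases and the share within 1000 bases 100%, both set by that window. With only peaks above the median width of all listed peaks, 171 peaks at 131 noncoding genes were left with a median width of 315 bases, which the choice itself sets. The alternatives without pseudogenes and small nuclear RNA genes, and with single-start peaks only, were chosen after seeing the data and moved none of the 6 results. No paired analysis was possible because each group has 1 library and no test was run. Depth and peak strength are unknown, so a gene without a listed peak is not shown to be unbound.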

Other observations

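The printed promoter of LINC01623 holds letters of another kind of element. Its letters GGTTCAATCCC begin at -29, inside the peak from -118 to 158, and fit GGTTC, any base, A, any 2 bases and CC, a form of the B box by which RNA polymerase III recognises transfer RNA genes. This motif was looked for after those letters had been seen. On both strands it was in 4 of the 36 promoters under a peak of the set, LINC01623 included, so that share is no independent measure of how often the set holds it. Of all long noncoding RNA promoters, 0.92% held it. In LINC01556, on chromosome 6 like LINC01623, GGATTCGAACC begins at -151, outside its peak from -40 to 106. The remaining matches, in LOC100132356 and LOC100506639, are the same letters read on opposite strands, GGTTCCAGTCC and GGACTGGAACC, so the 4 matches stand at 3 places, 1 of them the place that prompted the search. A match of letters does not show a transfer RNA gene, and the list cannot show which polymerase is present.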
